A study of Mus musculus with 4 samples.

Results

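Glycolysis and the 2 paths that branch from it were followed through 39 genes chosen by name from the 47935 loci of the deposited table. They encode glucose and lactate carriers, the enzymes from hexokinase to lactate dehydrogenase with their regulators, the pentose phosphate path, and the bisphosphoglycerate enzymes. All 39 were found, 35 with a row of their own and 4 (Aldoa, Pfkfb2, Pgls and Tkt) on a row shared with other genes. The shared rows are described but left out of medians. They were measured in MEL, a mouse erythroleukemia line blocked early in red cell development. RNA freed of ribosomal RNA came from 2 uninduced samples and from 2 samples whose medium held 1.5% DMSO, a solvent that starts red cell-like differentiation in this line. The labels name no genetic change in either group and 1 growth medium for both; the sources used here do not give the time in DMSO. Nothing in the labels ties a replicate to a culture of its own, so each p-value reflects the spread among these samples alone, and that spread may be technical.

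Glycolysis splits glucose into pyruvate and makes ATP without oxygen, and the lactate that proliferating cells form from pyruvate leaves through monocarboxylate carriers. The oxidative arm of the pentose phosphate path yields NADPH, which red cells use against peroxides, and the non-oxidative arm makes ribose for nucleotides. Red cells also run a side loop in which bisphosphoglycerate mutase makes 2,3-bisphosphoglycerate, the small molecule that lowers the oxygen affinity of hemoglobin. Mature red cells have no mitochondria and live on glycolysis.

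Levels are in FPKM, which divides fragments by transcript length and by library size, so that genes can be compared with one another. FPKM summed to between 1055861 and 1325806 per sample, and 12151 to 12645 loci reached 1 FPKM. Read depth was not given. A relative depth was estimated from the lowest values of short single-exon loci, with uninduced replicate 2 set to 1. Uninduced replicate 1 was placed at 0.92, and induced replicates 1 and 2 at 0.70 and 0.75. Low values may thus carry more error in the induced libraries, but the estimate is rough. Loci above 0 did not follow its order, at 20546 and 21160 in uninduced and 19612 and 23106 in induced samples. All 10 erythroid markers reached 1 FPKM in at least 2 samples, and their sum went from 1470 and 1762 to 59341 and 112900 FPKM. Most of the induced sums came from Hba-a1 (40301 and 67689 FPKM) and Hbb-bs (15800 and 39767 FPKM). The rise differed between markers: Alas2 went from 42.2 and 63.8 to 1490 and 3339 FPKM, and Epor from 111 and 145 to 162 and 180 FPKM. Granulocyte and macrophage markers summed to at most 0.70 FPKM in any sample (8 genes, with Elane and Ly6g at 0), mast cell markers to at most 0.05 (4 genes, with Mcpt8 and Fcer1a at 0), skeletal muscle markers to at most 0.03 and fibroblast markers to at most 0.19. Lymphoid markers, mainly Ptprc, summed to 7.38 and 2.71 in uninduced and 2.73 and 1.16 FPKM in induced samples, and liver markers, mainly Apoa1, to 4.27 and 5.24 against 0.06 and 0.29 FPKM. The megakaryocyte markers, nearly all of them Pf4, summed to 199 and 331 in uninduced and to 107 and 141 FPKM in induced samples, and the part of these 3 lists in the results was not tested. In bulk RNA, fewer cells of a kind and less RNA per cell cannot be told apart.

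After induction the share of all FPKM held by the 39 genes overlapped between groups, while single enzymes moved in both directions. Their summed level was 17125 and 19161 FPKM in uninduced and 15254 and 17042 FPKM in induced samples. Both induced sums thus lay below both uninduced sums, 1 of them narrowly. The genes together took 1.62% and 1.45% of all FPKM in uninduced samples and 1.22% and 1.55% in induced samples. Of the 39, 37 passed the filter of at least 1 FPKM in at least 2 samples. Bpgm, Pdk2 and the shared Pfkfb2 row rose, and Hk2, Slc16a1, Eno3, Pgd and the shared Tkt row fell, at a Benjamini-Hochberg adjusted p under 0.05 in limma over all 12890 loci tested. That is 8 of 37 members called, against 26.2% of all loci, with 3 higher against a background of 11.5% and 5 lower against 14.7%. The share is near the background, so the number of calls is not a result about these genes. Among the 33 tested members with a row of their own the median log2 change was -0.17, 12 values being above 0 and 21 below, beside a median of 0.03 over all loci. Both induced values lay above both uninduced values for 8 of these 33 and below for 15, where 36.1% and 34.7% of all loci did so (70.8% in either direction).

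**Figure D1:**
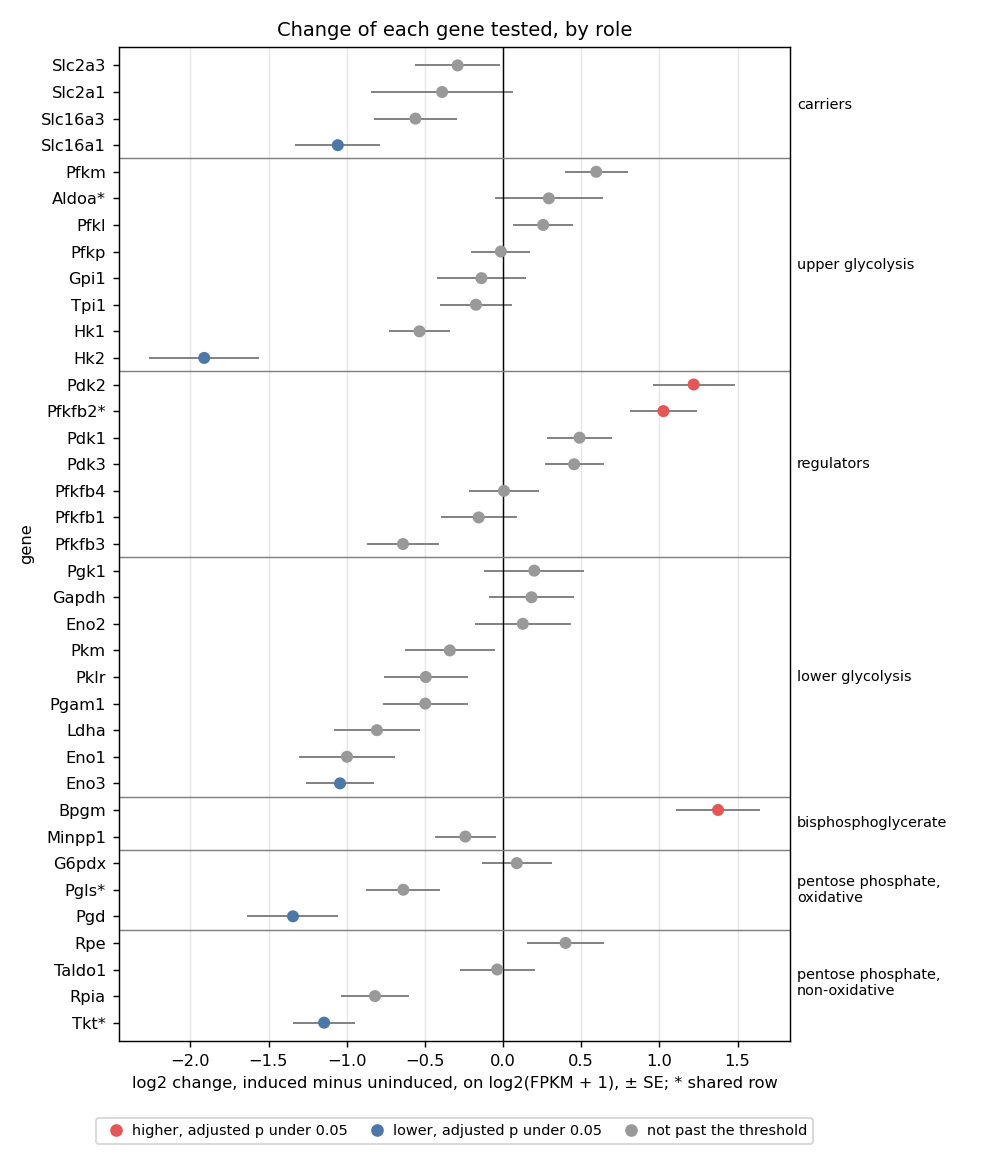
Log2 change (induced minus uninduced, on log2(FPKM + 1), horizontal axis) with its SE for each of the 37 genes tested, ordered by role. The 3 red points (Pdk2, Pfkfb2 and Bpgm) and the 5 blue points (Slc16a1, Hk2, Eno3, Pgd and Tkt) passed an adjusted p of 0.05; grey points did not.

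The calls depended on which samples were kept and on how the loci were filtered. Calls over the whole table also dropped whenever a sample was left out. With 1 sample left out, 7 members were called without uninduced replicate 1 and 6 without uninduced replicate 2, but 0 without induced replicate 1 and 0 without induced replicate 2. When the loci of the full comparison were kept fixed, 0 were called in each of the 4 fits with a sample left out. They also needed the filter, since 0 members were called by limma when low loci were kept, where 30 of 26323 loci passed. Beside the full count of 8, 15 of the 37 members had an unadjusted limma p under 0.05. Of all 12890 loci 5556 did, a like share, so this count is not a result about these genes either. Every log2 change is a difference of mean log2(FPKM + 1), given ± SE; the added 1 shrinks the change of genes at a low level.

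Both lactate carriers had both induced values below both uninduced ones, as 34.7% of all loci tested did. Of the 4 carriers 1 passed the test as lower, where 14.7% of all loci did. Slc16a1 encodes the monocarboxylate carrier MCT1, which moves lactate and pyruvate with protons (chromosome 3, 104638668 to 104658462, GRCm38). It measured 126 and 86.3 FPKM in the uninduced samples and 56.6 and 43.4 FPKM in the induced samples. Both induced samples lay below both uninduced ones. The log2 change was -1.06 ± 0.27 (limma adjusted p = 0.0456). Besides the losses shared by all 8 calls, this one was lost with quantile scaling, with sum scaling that leaves out globins and the 10 most abundant loci, with a pseudocount of 0.1 and without uninduced replicate 1 (limma adjusted p = 0.0953). Its adjusted p ran from 0.0229 to 0.214 over all alternatives. Slc16a3, the carrier MCT4 known for lactate export, was the more abundant of the pair in every sample. It measured 617 and 427 FPKM without DMSO and 366 and 330 FPKM with it (-0.56 ± 0.27, limma adjusted p = 0.174).

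The glucose carriers did not separate the groups. Slc2a1, the carrier GLUT1, measured 99.4 and 40.5 FPKM in uninduced and 55.5 and 42 FPKM in induced samples. Its high value was that of uninduced replicate 1 alone, and without that sample the log2 change turned from -0.39 to 0.25. Slc2a3, the high-affinity carrier GLUT3, measured 137 and 131 FPKM in uninduced and 87 and 137 FPKM in induced samples. The ranges of both genes overlapped between groups, and the GLUT1 share of the pair was 42.1% and 23.6% against 39.0% and 23.4%.

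**Figure D2:**
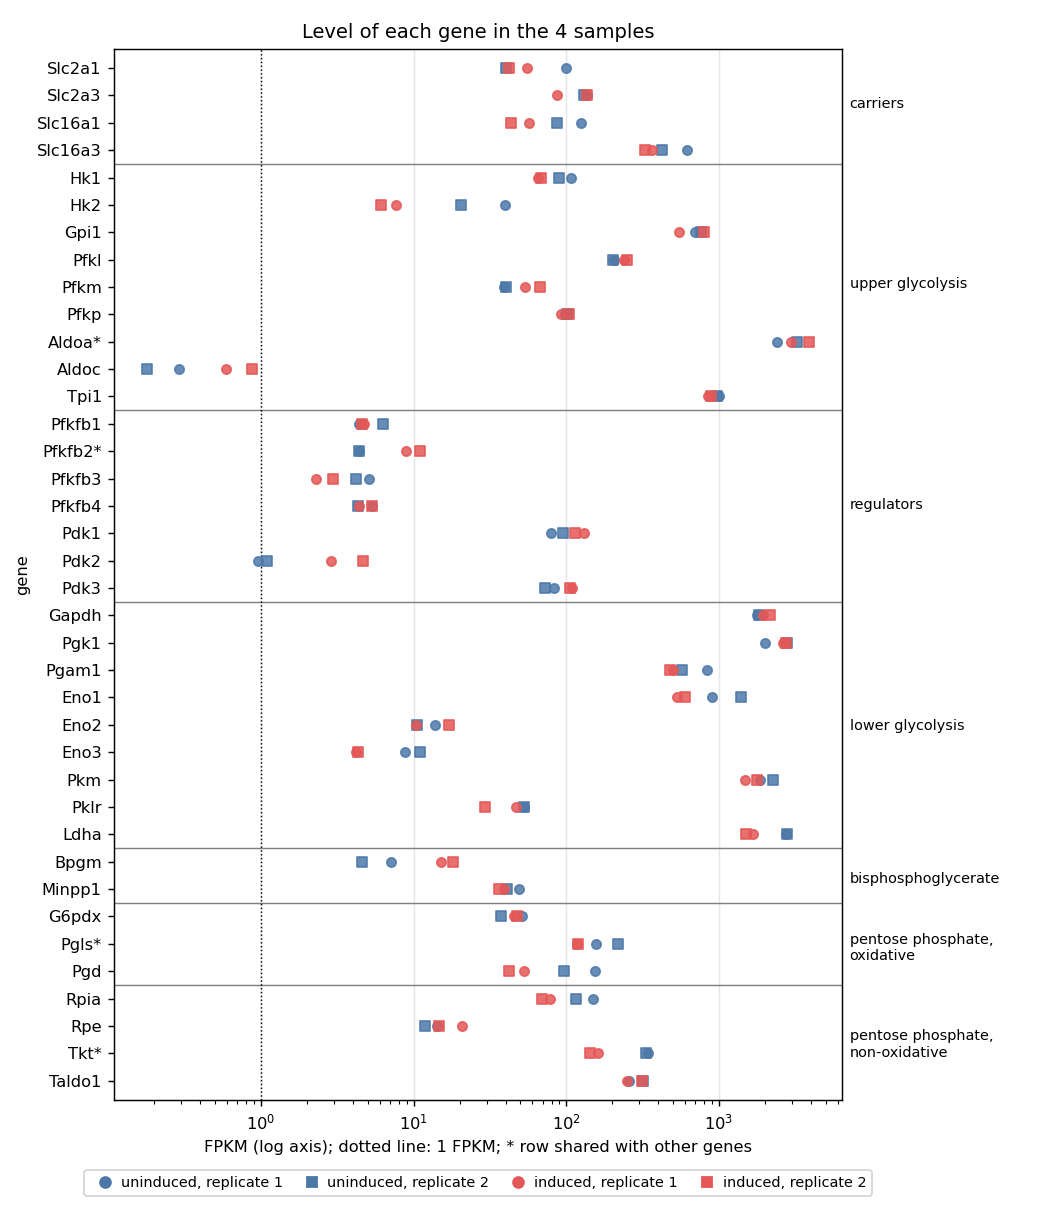
FPKM (log axis) of the 38 genes with a value above 0, in each of the 4 samples, ordered by role; Ldhb is left out because it was listed at 0 throughout. Hk2 and Pgd show both induced points to the left of both uninduced points, and Bpgm, Pdk2 and the shared Pfkfb2 row show the reverse.

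Hexokinases trap glucose in the cell by phosphorylation, and the inducible form fell. Hk2, the form known for its rise in proliferating cells (chromosome 6, 82725025 to 82774454), measured 39.6 and 20.6 FPKM in the uninduced samples. In the induced samples it measured 7.66 and 6.15 FPKM. The groups did not overlap, although the uninduced values lay farther apart in FPKM than the lower of them lay from the higher induced one. The log2 change was -1.91 ± 0.35 (limma adjusted p = 0.0228), the largest fall among the members tested. Its adjusted p ran from 0.00944 to 0.13 over the alternatives, and it did not pass without induced replicate 1 or without induced replicate 2. Hk1, the housekeeping form of red cells and brain, measured 107 and 89.5 FPKM in uninduced and 65.6 and 68.7 FPKM in induced samples (-0.53 ± 0.20, limma adjusted p = 0.1). Hk2 made up 27.1% and 18.7% of the summed Hk1 and Hk2 level without DMSO and 10.4% and 8.21% with DMSO. That difference of -13.6 percentage points had an exact two-sided permutation p of 0.33, the smallest that 2 against 2 samples allow (0.46 adjusted over the 58 shares, ratios and step levels compared).

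The promoters of some of these genes are shown because factors that drive glycolysis in growing or oxygen-starved cells are known to read short letters near the start. MYC and related factors bind the E-box CACGTG, and the hypoxia-inducible factors bind a core of ACGTG, which also lies inside every E-box. RefSeq windows on GRCm38.p6 were found for 38 of the 39 members, and the 250 bases before the RefSeq start farthest upstream were searched on both strands. ACGTG was found in 11 of the 38 (28.9%), against 16.5% of the windows of all genes of the same length. CACGTG was found in 4 (10.5%, against 6.04%), the Kruppel-like letters CACCC in 22 (57.9%, against 51.3%) and the GATA letters AGATAA in 2 (5.26%, against 10.2%). The 11 with ACGTG included Hk2 and Slc16a1, which fell, and Pdk2, which rose. The windows of the other called members, Bpgm, Eno3, Pgd, Tkt and Pfkfb2, held no ACGTG. The windows printed below were picked by name, and Ldha, which is among them, was not called. A link between the letters and the changes was not tested. A match is a description of the letters and not of a bound site. Capitals mark ACGTG, its reverse complement CACGT, or a whole E-box, and each window reads 5′ to 3′ toward the start of the gene.
Hk2, chr6:82774455-82774704, minus strand: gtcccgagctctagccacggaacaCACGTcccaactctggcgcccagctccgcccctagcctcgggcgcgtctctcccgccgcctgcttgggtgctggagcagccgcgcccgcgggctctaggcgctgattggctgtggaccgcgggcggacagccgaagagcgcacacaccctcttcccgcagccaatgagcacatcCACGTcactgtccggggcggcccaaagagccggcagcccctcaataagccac
Slc16a1, chr3:104638414-104638663, plus strand: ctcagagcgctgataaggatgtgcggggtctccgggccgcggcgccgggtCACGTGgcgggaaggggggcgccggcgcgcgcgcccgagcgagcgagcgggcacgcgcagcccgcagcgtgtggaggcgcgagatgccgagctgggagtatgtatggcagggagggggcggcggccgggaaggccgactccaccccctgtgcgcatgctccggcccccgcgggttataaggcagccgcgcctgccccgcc
Ldha, chr7:46845554-46845803, plus strand: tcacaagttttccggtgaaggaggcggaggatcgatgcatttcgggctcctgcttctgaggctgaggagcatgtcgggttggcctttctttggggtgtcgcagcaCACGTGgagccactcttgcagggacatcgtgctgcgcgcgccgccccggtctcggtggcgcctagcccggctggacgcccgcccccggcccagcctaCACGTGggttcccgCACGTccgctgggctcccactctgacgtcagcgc
Pdk2, chr11:95041372-95041621, minus strand: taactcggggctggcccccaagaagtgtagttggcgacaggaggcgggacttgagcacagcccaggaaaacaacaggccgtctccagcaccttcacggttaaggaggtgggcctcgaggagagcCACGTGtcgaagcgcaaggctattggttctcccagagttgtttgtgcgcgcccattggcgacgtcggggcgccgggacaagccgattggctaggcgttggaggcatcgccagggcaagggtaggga
Bpgm, chr6:34476106-34476355, plus strand: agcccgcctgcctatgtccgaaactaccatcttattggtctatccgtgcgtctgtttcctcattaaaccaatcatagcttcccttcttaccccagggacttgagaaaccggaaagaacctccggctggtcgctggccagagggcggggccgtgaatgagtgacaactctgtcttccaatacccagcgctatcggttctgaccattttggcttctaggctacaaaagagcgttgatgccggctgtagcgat
Hk2 held 2 cores outside an E-box, Slc16a1 and Pdk2 held 1 E-box each, and Ldha held 2 E-boxes and 1 further core. GENCODE places the starts of Bpgm and Ldha farther upstream than RefSeq does, so the Bpgm window lies partly and the Ldha window wholly inside the GENCODE gene. The Bpgm window held none of the 4 motifs, which says only that these letters are not in this window.

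Of the 6 other genes tested on a row of their own in upper glycolysis, 0 were called by limma, where 26.2% of all loci were. An unadjusted limma p under 0.05 was found for 2 of them, and for 5556 of all 12890 loci. Phosphofructokinase commits the sugar to glycolysis, and its summed level was 341 and 343 FPKM in uninduced and 383 and 422 FPKM in induced samples. Pfkl, the liver-type subunit, was the most abundant of the 3 in every sample, at 205 and 203 against 238 and 250 FPKM (0.26 ± 0.19, limma adjusted p = 0.351). Pfkm, the muscle-type subunit, which is also a red cell subunit, measured 38.9 and 40 against 53.9 and 67.2 FPKM (0.60 ± 0.20, limma adjusted p = 0.085). Pfkm shares 341 exon bases with Gm26513, and it passed only under quantile scaling among the alternatives (limma adjusted p = 0.0391, range 0.0391 to 0.375). The platelet-type subunit gene Pfkp stayed between 91.6 and 105 FPKM with overlapping groups, and the sign of its change turned under quantile and sum scaling; it shares 748 exon bases with Pitrm1 on the opposite strand. Pfkm thus took 11.4% and 11.7% of the summed level without DMSO and 14.1% and 15.9% with it (exact permutation p = 0.33).

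The enzymes that flank phosphofructokinase showed less. Gpi1, glucose phosphate isomerase, measured 697 and 765 FPKM in uninduced and 548 and 804 FPKM in induced samples, and the groups overlapped; it shares 741 exon bases with Gm26762 on the opposite strand. The row shared by Aldoa and Gm15676, which holds the main aldolase, measured 2395 and 3226 against 2963 and 3914 FPKM. Aldoc, the brain-type aldolase, stayed under 1 FPKM, at 0.29 and 0.18 against 0.59 and 0.87 FPKM, and was not tested. Tpi1, triose phosphate isomerase, measured 998 and 966 FPKM against 853 and 888 FPKM (-0.17 ± 0.23, limma adjusted p = 0.6).

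**Figure D3:**
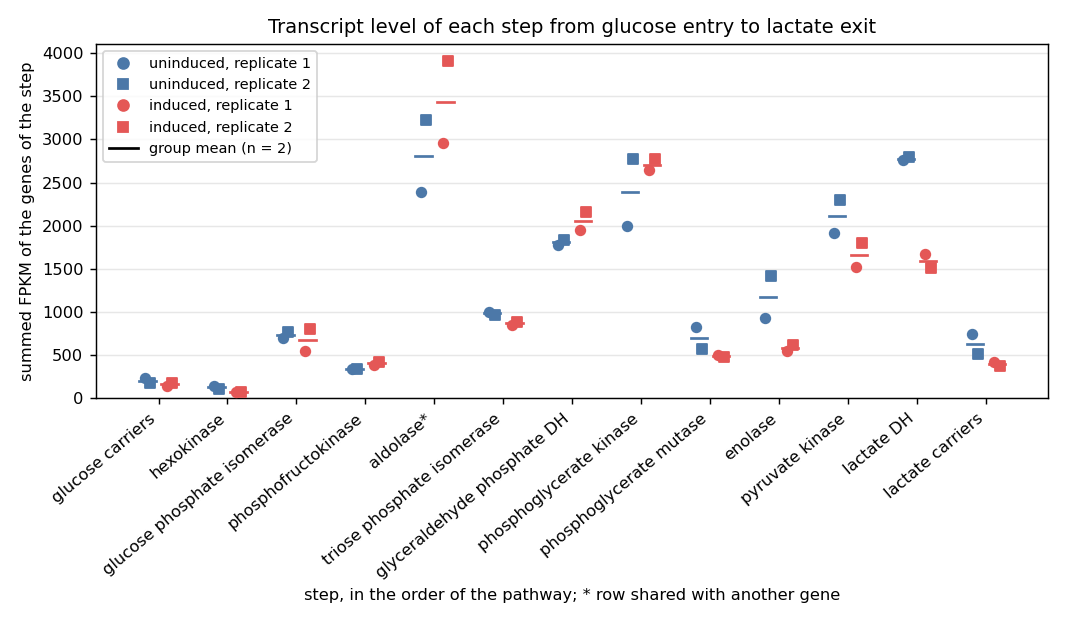
Summed FPKM of the genes of each step (vertical axis, from 0) in the 4 samples, in pathway order, with group means over n = 2. The lactate dehydrogenase points fall from 2756 and 2798 to 1669 and 1509 and the enolase points from 929 and 1419 to 543 and 621, while aldolase and phosphoglycerate kinase overlap between groups.

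The pair of enzymes that opens lower glycolysis kept high values. Gapdh, which makes the NADH of glycolysis and is widely used as a reference gene, measured 1779 and 1837 FPKM in uninduced and 1949 and 2158 FPKM in induced samples. The log2 change was 0.18 ± 0.27 (limma adjusted p = 0.636) and was above 0 under each of the 3 other scalings. Gapdh has 47 near-identical copies in the annotation, 43 of them pseudogenes, and rows of such copies together equalled 35.0% to 42.8% of the Gapdh level per sample, nearly all of it in Gm13394. With Gm13394 added the values were 2534 and 2472 against 2766 and 3038 FPKM. Pgk1, phosphoglycerate kinase, which makes the first ATP of the path, measured 2001 and 2775 against 2644 and 2771 FPKM, with overlapping groups.

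From phosphoglycerate mutase downward, Pgam1, Eno1, Pkm and Ldha each had both induced values below both uninduced ones, while Eno2 overlapped. Of all loci tested, 34.7% lay below in this way, so the separation alone is not a result about these genes. Among the lower glycolysis genes only the low-level Eno3 passed the test, as lower, where 14.7% of all loci did. Pgam1, which moves the phosphate from carbon 3 to carbon 2, measured 830 and 574 against 501 and 477 FPKM (-0.50 ± 0.27, limma adjusted p = 0.222). Eno1, the main enolase, measured 906 and 1397 FPKM in uninduced and 529 and 600 FPKM in induced samples, with no overlap (-0.998 ± 0.304, limma adjusted p = 0.0673). Reads of Eno1 can also be assigned to the near-identical Eno1b and Gm4735. Eno1b went from 202 and 287 to 116 and 111 FPKM (-1.08 ± 0.24, limma adjusted p = 0.0343), and Gm4735 from 304 and 367 to 180.5 and 156 FPKM (-0.99 ± 0.22, limma adjusted p = 0.0334). The sum of the 3 rows went from 1412 and 2051 to 825 and 866 FPKM (-1.01 ± 0.30, limma adjusted p = 0.062), so the fold was alike with and without the copies and the call was not reached. The Eno1 row by itself passed without uninduced replicate 1 (limma adjusted p = 0.0496) and in 1 further alternative, and its adjusted p ran from 0.042 to 0.227 over the alternatives.

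Eno3, the muscle-type enolase (chromosome 11, 70657202 to 70662513), fell. It measured 8.77 and 10.9 FPKM in the uninduced samples and 4.20 and 4.29 FPKM in the induced samples (-1.04 ± 0.22, limma adjusted p = 0.0288). It held under 1% of the summed enolase level in every sample, and its adjusted p ran from 0.0223 to 0.16 over the alternatives, without a pass when either induced sample or uninduced replicate 2 was left out. Eno2, the neuron-type enolase, measured 13.9 and 10.6 FPKM against 10.3 and 17.1 FPKM, with overlap.

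Pyruvate kinase makes the last ATP of the path. Pkm measured 1858 and 2251 FPKM in uninduced and 1474 and 1770 FPKM in induced samples (-0.34 ± 0.29, limma adjusted p = 0.409). Its row pools the M1 and M2 splice forms, which were not analysed here, and Pkm shares 767 exon bases with Gm49759. Pklr, whose red cell form is the pyruvate kinase of mature erythrocytes, measured 52.4 and 52.6 against 46.6 and 29.3 FPKM (-0.49 ± 0.27, limma adjusted p = 0.22). Pklr shares 711 exon bases with Hcn3 on the opposite strand, and whether reads were counted by strand is not given here. Pklr made up 2.74% and 2.28% of the 2 genes without DMSO and 3.06% and 1.63% with it, so the erythroid gene did not gain on Pkm beyond the spread.

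Lactate dehydrogenase turns pyruvate into lactate. Ldha measured 2756 and 2798 FPKM in uninduced and 1669 and 1509 FPKM in induced samples, and the groups lay far apart relative to their own spread. The log2 change was -0.81 ± 0.27 (limma adjusted p = 0.086), and no alternative brought it past the threshold (0.0697 to 0.314). Ldhb, the heart-type subunit, was listed at 0 in all 4 samples. The ratio of Ldha to Pkm was 1.48 and 1.24 without DMSO and 1.13 and 0.853 with it (exact permutation p = 0.33).

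Bisphosphoglycerate mutase rose. Bpgm (chromosome 6, 34476207 to 34505613), whose product sets the oxygen affinity of hemoglobin, measured 7.12 and 4.60 FPKM in the uninduced samples. In the induced samples it measured 15 and 18.1 FPKM. Both induced values lay above both uninduced ones, and the ratio of the group means was 2.83. The log2 change was 1.38 ± 0.27 (limma adjusted p = 0.0254). Its adjusted p ran from 0.0158 to 0.154 over the alternatives, with no pass without induced replicate 1 or induced replicate 2. The level stayed far under that of its glycolytic relative Pgam1: Bpgm stood at 0.858% and 0.801% of the Pgam1 level in uninduced and at 2.995% and 3.80% in induced samples. That is a difference of 2.57 percentage points (exact permutation p = 0.33). Minpp1, a phosphatase that can remove a phosphate from bisphosphoglycerate, measured 48.9 and 40.8 against 39.1 and 36.3 FPKM (-0.24 ± 0.20, limma adjusted p = 0.391), and shares 637 exon bases with an unnamed gene model. Bpgm thus stood at 0.145 and 0.113 of Minpp1 before and at 0.384 and 0.5 after induction.

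**Figure D4:**
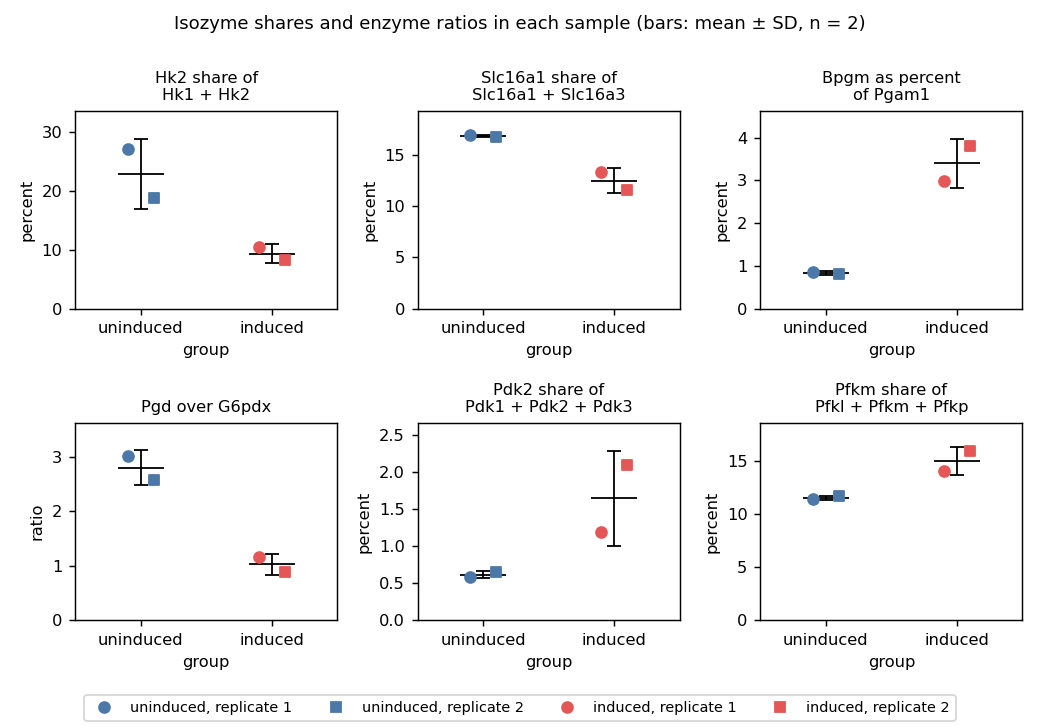
Isozyme shares and enzyme ratios in each sample (points), with the group mean ± SD over n = 2, on axes from 0. The Hk2 share and the Pgd to G6pdx ratio are lower, and the Bpgm to Pgam1 percentage is higher, in both induced samples than in both uninduced samples.

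Regulators of phosphofructokinase are the PFKFB enzymes, which make and break fructose 2,6-bisphosphate, its strongest activator. None of the 4 genes exceeded 11 FPKM. The row that Pfkfb2 shares with C4bp-ps1 and Gm29427 rose from 4.35 and 4.37 to 8.95 and 11 FPKM (1.03 ± 0.21, limma adjusted p = 0.0288), and its values cannot be assigned to Pfkfb2 alone (1262 exon bases are shared with Gm29427). Its adjusted p ran from 0.0225 to 0.184 over the alternatives, without a pass when an induced sample or uninduced replicate 2 was left out. Pfkfb3, the form known for its strong kinase activity in proliferating cells, measured 5.13 and 4.16 against 2.29 and 2.96 FPKM (-0.64 ± 0.23, limma adjusted p = 0.0967). Pfkfb1 measured 4.39 and 6.32 against 4.73 and 4.55 FPKM, and Pfkfb4 5.31 and 4.32 against 4.38 and 5.29 FPKM, with overlap in both. Without the shared row the sum of the family was 14.8 in both uninduced samples and 11.4 and 12.8 FPKM in induced samples. With the shared row it was 19.2 in both uninduced samples and 20.4 and 23.8 FPKM in induced samples, so the direction of the sum depended on that row.

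Pyruvate dehydrogenase kinases keep pyruvate out of the mitochondrial citric acid cycle. All 3 genes had both induced values above both uninduced ones, as 36.1% of all loci tested did, and only Pdk2 was called. Pdk2 (chromosome 11, 95026258 to 95041354) rose from 0.95 and 1.09 to 2.89 and 4.68 FPKM (1.22 ± 0.26, limma adjusted p = 0.0311). It reached the filter of 1 FPKM in 2 samples through the induced group, with 1 uninduced value on each side of it. Its adjusted p ran from 0.0221 to 0.156 over the alternatives, and it was not called without any one of the 4 samples (0.0544 to 0.156). Pdk1, a known target of hypoxia-inducible factors, measured 79.2 and 94.6 against 131 and 113 FPKM (0.49 ± 0.21, limma adjusted p = 0.137). Pdk3 measured 83 and 72.7 against 109 and 105 FPKM (0.45 ± 0.19, limma adjusted p = 0.131) and passed only under quantile scaling (limma adjusted p = 0.0414, range 0.0414 to 0.364). Together the 3 genes measured 163 and 168.5 FPKM in uninduced and 243 and 223 FPKM in induced samples. Pdk2 supplied 0.582% and 0.647% of this level before and 1.19% and 2.10% after induction.

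In the oxidative arm of the pentose phosphate path 1 of the 2 genes with a row of their own was called lower by limma. Of all loci 14.7% were, and a count over 2 genes cannot be told from that share. G6pdx, glucose-6-phosphate dehydrogenase, the entry enzyme, measured 50.9 and 37.6 FPKM in uninduced and 45.5 and 47.6 FPKM in induced samples, with overlap. It shares 418 exon bases with Ikbkg on the opposite strand. Pgd, 6-phosphogluconate dehydrogenase, which makes the second NADPH (chromosome 4, 149149991 to 149166771), fell from 154 and 96.7 to 53.1 and 42.4 FPKM (-1.34 ± 0.29, limma adjusted p = 0.0317). The call was lost with sum scaling (limma adjusted p = 0.0533) and without either induced sample, and the range over the alternatives was 0.016 to 0.162. Pgd exceeded G6pdx 3.02 and 2.57 times in uninduced samples and 1.17 and 0.89 times in induced samples (exact permutation p = 0.33). The row shared by Pgls, the lactonase between the 2 dehydrogenases, and Fam129c measured 156 and 218 against 117 and 119 FPKM (-0.64 ± 0.24, limma adjusted p = 0.104).

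In the non-oxidative arm the shared Tkt row passed the test. Of the 3 genes with a row of their own 0 were called by limma (1 at an unadjusted p under 0.05), where 26.2% of all loci were called. The row of Tkt, transketolase, which passes 2-carbon units between sugars, fell from 343 and 332 to 163 and 142 FPKM (-1.14 ± 0.20, limma adjusted p = 0.021; chromosome 14, 30548359 to 30574720). The other gene on this row is the microRNA gene Mir3076, which shares 1 exon base with it. Its adjusted p ran from 0.0158 to 0.125 over the alternatives, without a pass when an induced sample was left out. Rpia, ribose-5-phosphate isomerase, measured 149 and 115 against 78.6 and 69.7 FPKM (-0.82 ± 0.22, limma adjusted p = 0.0503), just short of the threshold. It passed with median-of-ratios scaling (limma adjusted p = 0.0374), at a 5 FPKM filter (0.0482), with loci listed at 0 left out (0.0433), without uninduced replicate 2 (0.0484) and in 1 further alternative, in a range from 0.0374 to 0.23 over the alternatives. Rpe, the epimerase, measured 14.3 and 11.8 against 20.7 and 14.7 FPKM, and shares 558 exon bases with Kansl1l on the opposite strand. Taldo1, transaldolase, measured 259 and 317 against 248 and 314 FPKM, with overlap and a sign that turned under quantile and sum scaling. The ratio of the Tkt row to Taldo1 was 1.32 and 1.05 before and 0.655 and 0.453 after induction.

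Genes next to these paths were read from further lists. Of 11 other glycolysis and gluconeogenesis genes tested, 3 fell and 1 rose, with a median log2 change of -0.50, where 14.7% of all loci fell and 11.5% rose. Fbp2, Pgam2, Slc2a5 and Slc2a4, described next, reached the filter of 1 FPKM in 2 samples only through the group in which they were high, so their tests are conditional on that and could not be made when a sample of that group was left out and the filter reapplied. Fbp2, the muscle-type fructose bisphosphatase, went from 14.4 and 13 to 0.09 and 0.19 FPKM (-3.69 ± 0.21, limma adjusted p = 0.00385). Pgam2, the muscle-type phosphoglycerate mutase, rose from 0.35 and 0.47 to 2.45 and 4.04 FPKM (1.57 ± 0.26, limma adjusted p = 0.0196). The other 2 that fell, Pck2 and G6pc3, were named after their values were seen. Of 7 other carrier genes tested, Slc2a5, the fructose carrier, fell from 4.68 and 6.27 to 0.93 and 0.96 FPKM (-1.72 ± 0.23, limma adjusted p = 0.0144). Slc2a4, the insulin-responsive GLUT4, rose from 0.67 and 0.23 to 1.89 and 1.73 FPKM (0.97 ± 0.24, limma adjusted p = 0.041), a call lost with a pseudocount of 0.1 (limma adjusted p = 0.0642).

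For the entry of pyruvate into mitochondria, 0 of 10 genes tested were called by limma, where 26.2% of all loci were (median log2 change -0.09). At an unadjusted limma p under 0.05 there were 4, where 5556 of all 12890 loci lay under it. Other pentose phosphate genes gave 0 of 4 (1 at an unadjusted p under 0.05), beside the same background. Of 8 users and makers of NADPH tested, Idh2, the mitochondrial isocitrate dehydrogenase that makes NADPH, fell from 134 and 185 to 67.8 and 59.5 FPKM (-1.30 ± 0.24, limma adjusted p = 0.0226). Nqo1, a quinone reductase that uses NADPH or NADH, rose from 6.72 and 6.90 to 13.2 and 15.4 FPKM (0.97 ± 0.20, limma adjusted p = 0.0291). Over the 8 further lists together 17 genes were called, with the number tested given list by list, where 26.2% of all loci were called. Fewer list genes, and fewer loci of the whole table, were called when an induced sample was left out.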

How the data were processed

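RNA-seq of MEL cells comprised 4 samples, uninduced and DMSO-induced, with replicates 1 and 2 in each as the titles give them. The submitters' processing notes name TopHat2 and GRCm38; quantifier, versions, annotation release and strandedness are not given in the sources used here. In the table the authors deposited, each sample has a column in FPKM, a unit inferred from the values and, per the file headers, from columns that a Cufflinks tracking table has. Depth was not given, so no count model was used.

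The members and all lists were chosen with earlier results of these data known. The fit used limma 3.58.1 (trended eBayes, R 4.3.3) on log2(FPKM + 1), with a term for group and no other, over the 12890 loci that reached 1 FPKM in 2 or more samples. All their p-values were adjusted together by Benjamini-Hochberg, with calls under 0.05. Shares, ratios and step levels were compared with exact two-sided permutation tests (6 arrangements). Every member was described; from each further list the called gene with the largest change in each direction was named, and Pck2, G6pc3, Ugp2, Eno1b, Gm4735, Gm13394, Vhl, Arnt, Kdm3a and Ankrd37 were named after their values were seen. Gene positions are from GENCODE M21 on GRCm38. Near-identical copies were GENCODE transcripts of other genes that aligned (BLAST 2.17.0) at 95% identity or more over at least 250 bases. The sum of all FPKM includes globins, so other genes can be scaled down where globins rise. Median-of-ratios scaling multiplied uninduced samples by 1.004 and 1.052 and induced samples by 0.994 and 0.953. Sum scaling multiplied them by 1.021 and 0.918 and by 1.07 and 1.004, so the 2 scalings differed in direction. In all, 3 other scalings, other filters, a pseudocount of 0.1, a replicate block and leaving out each sample were tried. After the data were seen, leave-one-out fits on the loci of the full comparison and sums with copies were added. Tigar and Idnk, fixed in the lists, were not analysed here. The values of 1 gene of a further list are not reported here.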

Additional observations from a re-analysis of the deposited data

How the results depend on the processing

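The 8 calls among the members kept their direction under every alternative run; with all 4 samples, 59 of their 71 values stayed past the threshold and 12 did not, and with 1 sample left out 11 of 64 stayed. Called members numbered 9 with quantile scaling, 9 with median-of-ratios scaling, 6 with sum scaling, 8 at a 5 FPKM filter, 7 with a pseudocount of 0.1 and 0 without a filter. Without a filter 30 loci of the whole table and 0 genes of the further lists were called. With 1 sample left out, the called loci ranged from 187 to 2685 (3377 with all samples), or from 14 to 486 in added fits that kept the loci of the full comparison (67 without induced replicate 2), called members from 0 to 7, and called list genes from 0 to 14. The replicate numbers do not pair the samples by any label, and the deviations of same-numbered samples correlated at 0.17 across loci; with the replicate block 4238 loci, 10 members and 25 list genes were called, the 2 added members being Eno1 (limma adjusted p = 0.042) and Rpia (0.0375). The lactate dehydrogenase difference was -1307 FPKM with median-of-ratios scaling, against -1188 as deposited, and the PFKFB difference turned from -2.71 to 2.88 FPKM when the shared row was counted. Reversed signs arose in members that were not called: log2 changes of 0.05 (Gpi1), 0.25 (Pfkp) and 0.17 (Taldo1) with quantile scaling, 0.08 (Pfkp) and 0.06 (Taldo1) with sum scaling, and -0.06 (Pfkfb4) with median-of-ratios scaling. In leave-one-out fits of either kind, log2 changes ran from -1.03 to 0.25 for Slc2a1, from -0.61 to 0.03 for Slc2a3, from -0.41 to 0.14 for Gpi1, from -0.38 to 0.07 for Pfkfb1, from -0.04 to 0.44 for Pgk1, from -0.21 to 0.47 for Eno2 and from -0.13 to 0.30 for G6pdx. Further reversed values were -0.12 and -0.11 for Pfkfb4 without uninduced or induced replicate 2, -0.06 for Eno2 without uninduced replicate 2, and 0.01 and 0.08 for Pfkp and 0.11 and 0.13 for Taldo1 without uninduced replicate 2 or induced replicate 1. The cause was not tested. Read depth is unknown, so no counting interval can be given.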

Other observations

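Of 13 tested genes that draw on or store hexose phosphate, 2 rose and 1 fell, where 11.5% of all loci rose and 14.7% fell, so the share called was near the background. Ugp2, which makes UDP-glucose and was named after its values were seen, rose from 2.99 and 1.84 to 5.71 and 5.47 FPKM (0.97 ± 0.25, limma adjusted p = 0.0472); the call was lost with median-of-ratios scaling (0.0503), sum scaling (0.0522) and a pseudocount of 0.1 (0.0562). Gfpt1, the entry enzyme of hexosamine synthesis, fell from 14.4 and 15.8 to 8.45 and 7.55 FPKM (-0.84 ± 0.20, limma adjusted p = 0.0388), a call lost with sum scaling (0.0651) and with any 1 sample left out (0.0573 to 0.216). The median log2 change of the 13 was 0.03, beside 0.03 over all loci.

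Hypoxia-inducible factors are known activators of many glycolysis genes. Of 17 of these factors and their known targets tested, 4 rose and 2 fell, against 11.5% and 14.7% of all loci; 12 log2 changes were above 0 and 5 below, with a median of 0.18. Vegfa, a growth factor of vessels, rose from 22.3 and 24.9 to 55.1 and 80.5 FPKM (1.46 ± 0.25, limma adjusted p = 0.02). Ero1l, an oxidase of the endoplasmic reticulum, fell from 97.7 and 95.1 to 44 and 32.6 FPKM (-1.32 ± 0.22, limma adjusted p = 0.0196). Vhl, Arnt and Kdm3a also rose and Ankrd37 also fell, named after their values were seen. Of 3 glucose-sensing genes tested, 0 were called by limma, where 26.2% of all loci were. An unadjusted limma p under 0.05 was found for 1 of them, and for 5556 of all 12890 loci.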
